A study of Mus musculus with 32 samples.

Results

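The leptin receptor signalling set described here held 10 genes of the 55401 in the deposited table: the receptor Lepr, its kinase Jak2, the transcription factors Stat3 and Stat5a, the feedback genes Socs3, Cish and Socs2, the phosphatases Ptpn1 and Ptpn2 and the adaptor Sh2b1. They were chosen by name, with earlier results of these data known. They were found through the Ensembl identifiers that a GRCm38 annotation pairs with those symbols. All 10 passed the filter on low values, which kept 19928 genes. RNA came from the whole hypothalamus of 32 male C57BL/6NTac mice, 1 library per mouse, sequenced as stranded read pairs. The series addressed obesity and insulin resistance after loss of Gpr101, an X-linked orphan receptor gene, and all mice ate standard chow until the diets began at 7 weeks. The groups were hemizygous Gpr101 knockouts on a high-fat diet (KO_HFD, 9 mice) or control diet (KO_CD, 8 mice), and wild-type littermates on the high-fat diet (WT_HFD, 8 mice) or control diet (WT_CD, 7 mice). Fat supplied 60% of the energy of the high-fat diet. How the knockout allele was made and what the control diet contained were not given in the sources used here.

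Leptin, the hormone of fat tissue, binds its receptor on hypothalamic neurons, where the receptor-bound kinase JAK2 phosphorylates STAT3 and STAT5. Phosphorylated STAT dimers enter the nucleus and switch on target genes, among them SOCS3 and CISH, which block the receptor complex and so close a feedback loop. The phosphatases encoded by Ptpn1 and Ptpn2 remove phosphate from JAK2 and STAT3. Cytokine receptors that share gp130, such as those for interleukin 6 and LIF, use the same STAT3 and SOCS3. The RNA level of these genes does not show whether their proteins were phosphorylated.

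Reads on genes ranged from 25.3 to 34.2 M per library, with a median of 27.7 M. Gpr101 had 1 read in all KO_HFD libraries together and 0 in KO_CD libraries, which allows up to 0.0133 CPM over that group. It averaged 102.18 ± 3.95 CPM in WT_HFD libraries and 101.25 ± 3.72 CPM in WT_CD libraries (SD), so all labels of genotype matched the targeted gene. All 12 hypothalamic marker genes were found in every library, among them Avp with a mean of 8625 normalized counts. Mice of 149 days made up 1 of 9 KO_HFD, 5 of 8 KO_CD, 1 of 8 WT_HFD and 6 of 7 WT_CD mice, and the others were 150 days old, so age moved with diet.

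Levels below are normalized counts, which are reads divided by a size factor of the library. To compare genes, levels were divided by the merged length of all annotated exons of a gene. That length can exceed the length of the transcripts present, and it was 6419 bases for Cish. Per kilobase of merged exon, the mean over 32 libraries was highest for Sh2b1, at 488 normalized counts per kb. Stat3 followed at 296 and Jak2 at 266, and the ranges of these genes over the libraries overlapped. Ptpn1 averaged 171 and Ptpn2 averaged 164 normalized counts per kb, again with overlapping ranges. Socs3 averaged 53.3, Lepr 30.6, Stat5a 23.5, Socs2 23.02 and Cish 14.6 normalized counts per kb. The ranges of Lepr, Stat5a, Socs2 and Cish overlapped each other, and that of Lepr also overlapped Socs3. By this measure the receptor, Stat5a and the genes of the SOCS family were the scarcer ones of the set. The adaptor, Stat3 and the kinase were the more abundant ones. Which transcripts of each gene were present was not tested, so the order depends partly on the annotation. In whole tissue, fewer cells of a type and less RNA per cell cannot be told apart.

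**Figure D1:**
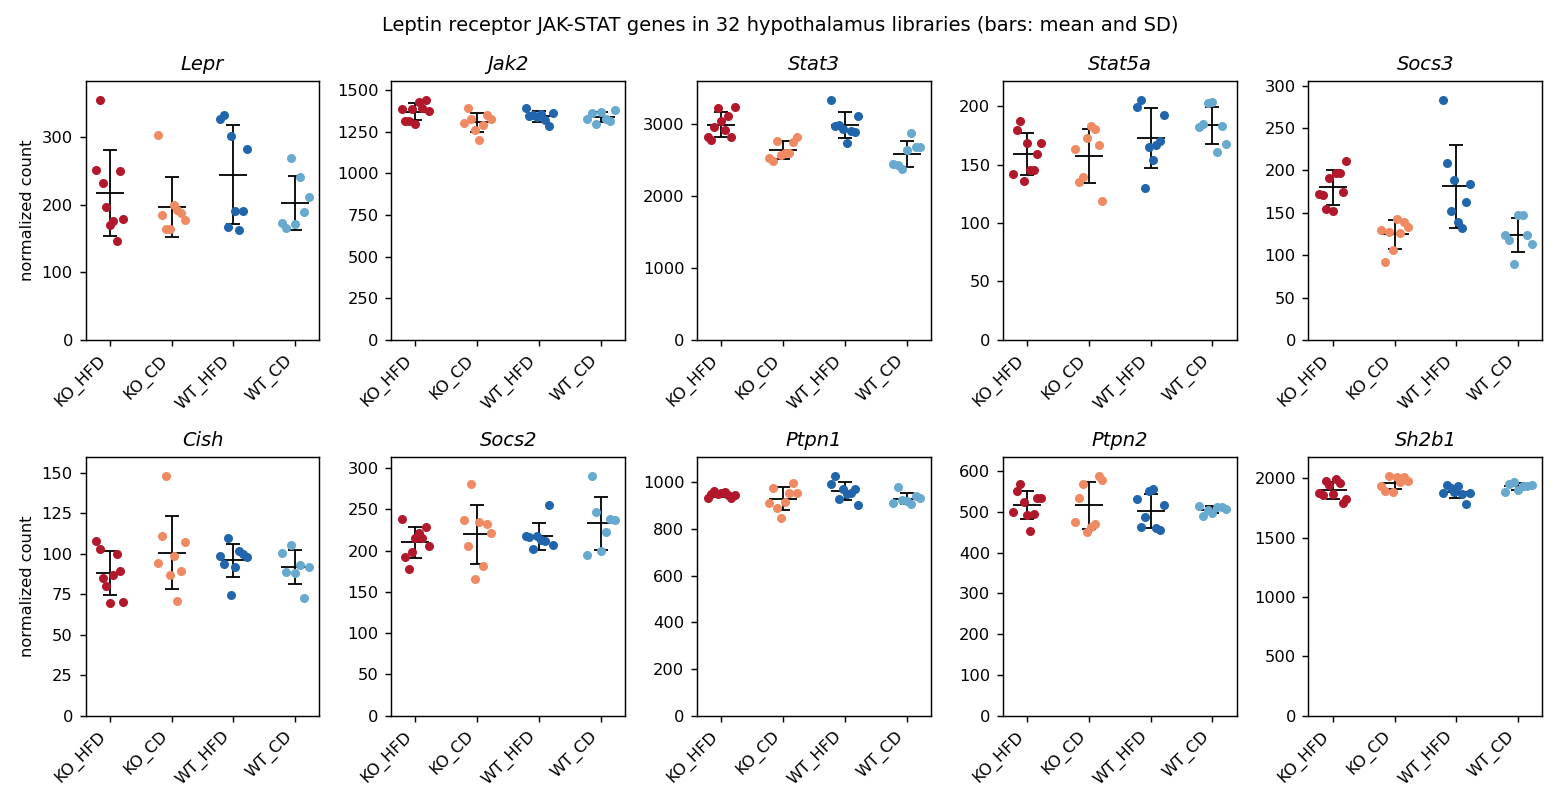
Normalized counts (y axes, from 0) of the 10 genes in each library by group, with bars for the mean and SD of 9 KO_HFD, 8 KO_CD, 8 WT_HFD and 7 WT_CD libraries. Most high-fat values of Stat3 and Socs3 lie above all control-diet values of the same genotype, and every KO_HFD value of Socs3 lies above every KO_CD value.

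Of the 10 genes, Stat3 and Socs3 were called higher on high-fat diet than on control diet, averaged over genotypes, and the other 8 were not called. Stat3 was at 1.14-fold the control-diet level (1.13-fold in knockouts and 1.16-fold in wild type). Socs3 was at 1.44-fold in the average and in each genotype. No member was called between knockouts and wild type on either diet. Across all tested genes, 0.336% were called for diet at an adjusted p below 0.05 (37 higher and 30 lower), by limma with Benjamini-Hochberg adjustment, against 2 of 10 members. By p, Stat3 ranked 5th and Socs3 8th of the 19928 genes. Because the members were chosen with earlier results of these data known, these counts and ranks only describe the set.

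Stat3 (ENSMUSG00000004040, chromosome 11, 100885098 to 100939540, minus strand) encodes the transcription factor that carries the leptin signal to the nucleus. Its lowest, median and highest normalized counts were 2779, 2961 and 3235 in KO_HFD and 2493, 2606 and 2821 in KO_CD. They were 2743, 2959 and 3336 in WT_HFD and 2375, 2641 and 2875 in WT_CD. In knockouts 8 of 9 high-fat libraries lay above every control-diet library, and in wild type 7 of 8 did, so the ranges overlapped by few libraries. The log2 fold change for diet averaged over genotypes was 0.19 (SE 0.027, adjusted p = 5.34e-05). Within knockouts it was 0.18 (SE 0.037, adjusted p = 0.0568), and within wild type 0.21 (SE 0.040, adjusted p = 0.0209). The interaction of genotype and diet for Stat3 was -0.03 on the log2 scale, with a 95% confidence interval of -0.14 to 0.08. Leaving out any of 6 wild-type libraries (WT_HFD replicates 1, 3 and 8, WT_CD replicates 1, 2 and 3) ended the call in wild type, with adjusted p of 0.0537 to 0.113 and log2 fold changes of 0.19 to 0.21.

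Socs3 (ENSMUSG00000053113, chromosome 11, 117966079 to 117970047, minus strand) encodes the inhibitor that STAT3 induces and that binds the leptin receptor and gp130. Its lowest, median and highest normalized counts were 152, 174 and 211 in KO_HFD and 92.4, 128 and 143 in KO_CD. They were 132, 173 and 283 in WT_HFD and 89.9, 123 and 148 in WT_CD. Every knockout on high-fat diet exceeded every knockout on control diet, a pattern that 8 of the 19928 genes (0.0401%) showed. In wild type 6 of 8 high-fat libraries exceeded every control-diet library. There 0.0301% of genes had every high-fat library above every control-diet library, and none was a member. WT_HFD replicate 1 was the highest library for both Socs3 and Stat3. The log2 fold change of Socs3 averaged over genotypes was 0.53 (SE 0.082, adjusted p = 0.000295). It was also 0.53 within knockouts (SE 0.112, adjusted p = 0.0591) and within wild type (SE 0.119, adjusted p = 0.140). Socs3 was thus called in the average and missed the threshold in each genotype. The interaction was 0.00 on the log2 scale, with an interval of -0.33 to 0.33, so that a modest difference in the diet effect between genotypes was not detectable.

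The feedback genes Socs3 and Cish are shown with their RefSeq promoters. Of the members searched, they are those whose window holds the STAT motif TTCNNNGAA, given in capitals. The motif is its own reverse complement, so a match counts for both strands. Each window runs from 250 bases before to 50 after a start that RefSeq annotates, 5′ to 3′ on its own strand. That start lies inside the Ensembl span given for the gene, 681 bases from its 5′ end for Socs3 and 633 bases for Cish.
Socs3 promoter, GRCm38.p6 chr11:117969317-117969616, minus strand: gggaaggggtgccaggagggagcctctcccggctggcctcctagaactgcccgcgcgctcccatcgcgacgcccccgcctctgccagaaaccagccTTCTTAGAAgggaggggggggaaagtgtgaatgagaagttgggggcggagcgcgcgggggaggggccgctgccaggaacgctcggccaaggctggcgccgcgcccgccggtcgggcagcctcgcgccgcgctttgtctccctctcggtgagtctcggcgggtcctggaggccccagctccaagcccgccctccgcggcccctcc
Cish promoter, GRCm38.p6 chr9:107296409-107296708, plus strand: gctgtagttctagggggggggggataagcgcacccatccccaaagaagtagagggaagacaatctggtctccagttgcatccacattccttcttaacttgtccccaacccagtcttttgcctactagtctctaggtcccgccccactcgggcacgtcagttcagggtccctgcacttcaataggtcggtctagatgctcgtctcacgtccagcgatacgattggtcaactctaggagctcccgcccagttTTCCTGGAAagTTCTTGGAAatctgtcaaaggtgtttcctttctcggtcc
In Socs3 the match spans positions -154 to -146 relative to the RefSeq start. In Cish the matches begin 0 and 11 bases after the RefSeq start. RefSeq promoter windows of 8 members were searched, 11 windows in all, and the other 9 held no match, Stat3 among them. No window of Socs2 or Ptpn2 was searched. Of all 32851 promoter windows, 8.30% held at least 1 match and 0.457% held 2 or more. A match is a description of these letters, and occupancy by STAT proteins was not measured.

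Of the genes with this motif, Socs3 was called for diet and Cish was not, and the difference between them was not tested. Cish (ENSMUSG00000032578, chromosome 9, 107296026 to 107302784, plus strand) encodes a SOCS family inhibitor best known as a target of STAT5. Its lowest, median and highest normalized counts were 69.2, 87.1 and 108 in KO_HFD, 70.8, 96.1 and 148 in KO_CD, 74.4, 98.1 and 110 in WT_HFD, and 72.4, 91.8 and 105 in WT_CD. All 4 groups overlapped. Its log2 fold change for diet was -0.06 averaged over genotypes (SE 0.078, adjusted p = 0.846), -0.18 in knockouts and 0.07 in wild type. The interaction was -0.25 on the log2 scale, with an interval of -0.56 to 0.07. Socs2 (ENSMUSG00000020027, chromosome 10, 95385362 to 95417180, minus strand), the SOCS gene that restrains growth hormone signalling, moved with diet by -0.07 on the log2 scale (SE 0.058, adjusted p = 0.693). Its normalized counts averaged 210 ± 18.9 in KO_HFD, 220 ± 35.6 in KO_CD, 217 ± 16.5 in WT_HFD and 233 ± 32.1 in WT_CD (SD). For both genes any difference by diet was within the spread of the mice.

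**Figure D2:**
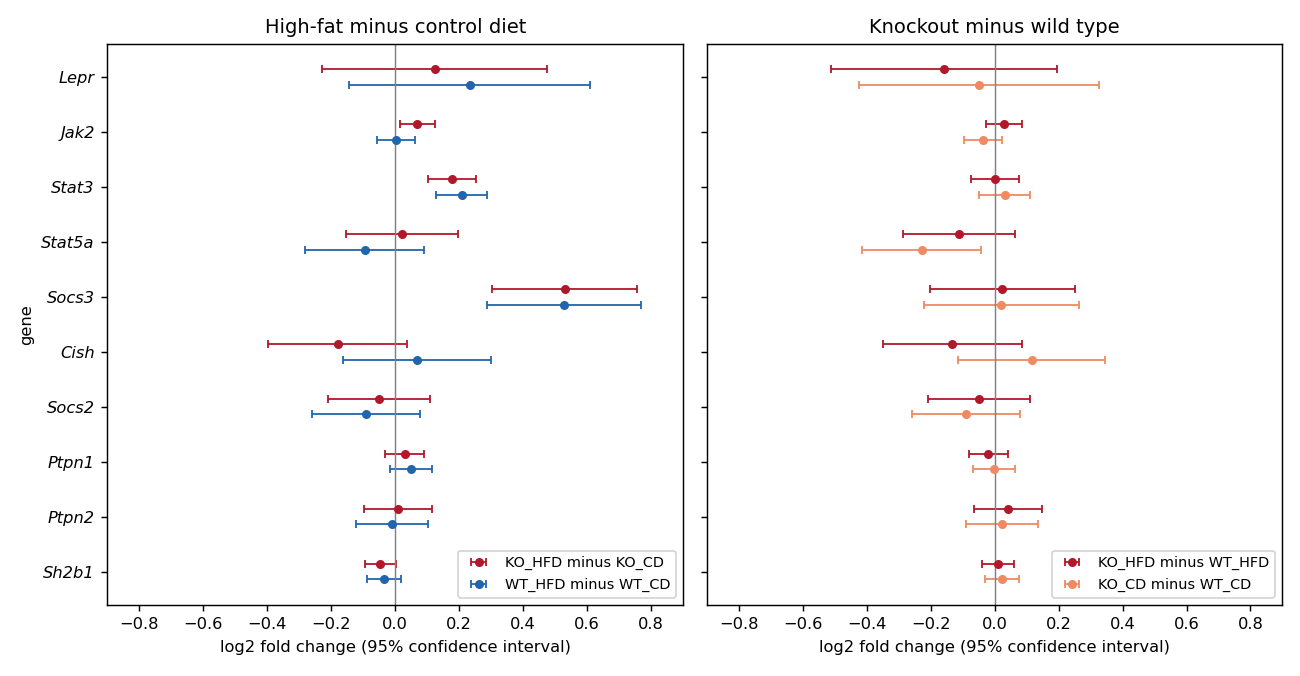
Log2 fold changes of the 10 genes (x axes) with 95% confidence intervals from limma, for diet within each genotype (left panel) and for genotype on each diet (right panel). Stat3 (0.18 and 0.21) and Socs3 (0.53 and 0.53) stand to the right of 0 in both genotypes, and the intervals for genotype cross 0 except that of Stat5a on control diet.

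Lepr (ENSMUSG00000057722, chromosome 4, 101717404 to 101815352, plus strand) encodes the receptor, and the gene-level values do not separate the long signalling isoform from the short ones. Its lowest, median and highest normalized counts were 147, 196 and 355 in KO_HFD and 164, 186 and 303 in KO_CD. They were 163, 237 and 333 in WT_HFD and 166, 189 and 269 in WT_CD. The groups overlapped, and in KO_HFD and KO_CD 1 library stood far above the rest. The log2 fold change for diet was 0.18 averaged over genotypes (SE 0.126, adjusted p = 0.639), 0.12 in knockouts and 0.23 in wild type.

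The libraries with high Lepr were those with high levels of meningeal fibroblast genes, a list of 14 genes such as Col1a1, Dcn and Slc6a13 that mark the membranes around the brain. The summed normalized counts of that list fell on either side of a gap, from 1883 to 4625 in 23 libraries and from 6477 to 11692 in 9 libraries. In the 9 libraries above the gap Lepr had a median of 303 and ranged up to 355, and in the 23 below it Lepr had a median of 179 and a range of 147 to 241. Over all 32 libraries, as deviations from group means, Lepr and the list's mean had r = 0.889 (permutation p = 1e-05, adjusted over 130 relations 0.0013). Their rho was 0.8435 (adjusted 0.0013), and r was 0.847 without the 2 farthest libraries. The split at the gap was chosen after the values were seen, and on each side group means were not removed. Within the 9 libraries Lepr followed the mean log2 level of the list closely (Pearson r = 0.954, permutation p = 8e-05, adjusted over the 2 sets of libraries 0.00016; Spearman rho = 0.950, p = 0.00036, adjusted 0.00072; r = 0.953 without the 2 libraries farthest from the median). Within the 23 libraries r was 0.182 (permutation p = 0.401) and rho -0.02 (p = 0.929), and r was -0.296 without the 2 farthest. The 9 libraries were 3 KO_HFD, 1 KO_CD, 4 WT_HFD and 1 WT_CD, so 7 of 17 high-fat and 2 of 15 control-diet libraries lay above the gap. Below the gap the median of Lepr was 178 in KO_HFD, 185 in KO_CD, 179 in WT_HFD and 181 in WT_CD. With the list's mean as a covariate the log2 fold change of Lepr for diet was -0.03 (adjusted p = 0.926).

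**Figure D3:**
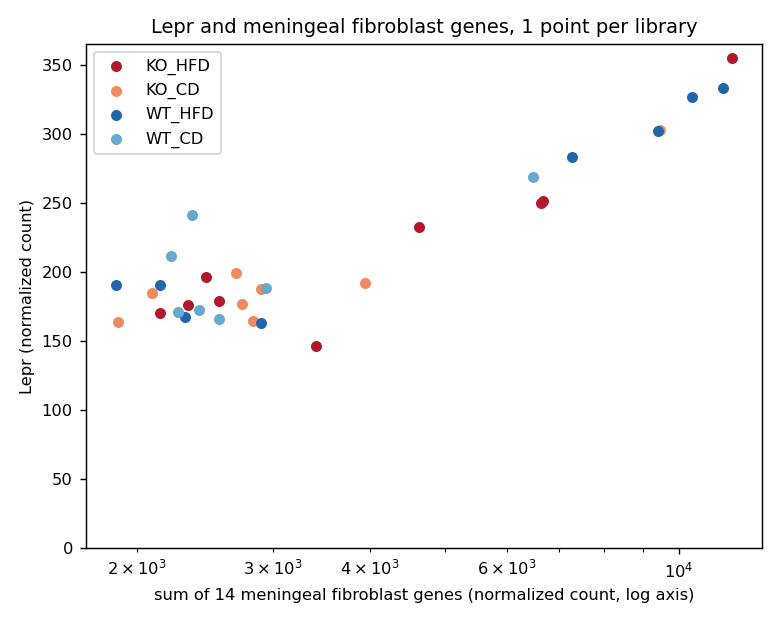
Normalized count of Lepr (y axis) against the summed normalized counts of 14 meningeal fibroblast genes (log x axis), 1 point per library, coloured by group. The 9 libraries with sums of 6477 or more carry Lepr values up to 355, and the 23 libraries with sums of 4625 or less range from 147 to 241.

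The meningeal list was higher on high-fat diet, averaged over genotypes, in 14 of 14 genes. None of them was called by limma and 2 had an unadjusted p below 0.05, against 0.336% and 11.1% of all genes. Its summed counts were 2145 to 11692 in KO_HFD, 1892 to 9441 in KO_CD, 1883 to 11391 in WT_HFD and 2218 to 6477 in WT_CD. Of choroid plexus genes, a tissue that also expresses Lepr, 7 of 13 tested were above 0 for diet, 0 were called by limma and 0 had an unadjusted p below 0.05. Its defining marker Ttr had a mean of 36.0 normalized counts. Lepr also followed the choroid plexus list (r = 0.693, permutation p = 0.00016, adjusted over 130 relations 0.00693; rho = 0.639, adjusted 0.0399; r = 0.617 without the 2 farthest libraries) and the endothelial list (r = 0.655, permutation p = 0.0003, adjusted 0.00975; rho = 0.560, adjusted 0.0702; r = 0.552 without the 2 farthest). These values pool libraries on both sides of the meningeal gap. Within groups r for choroid plexus was 0.663 in KO_HFD, 0.913 in KO_CD, 0.875 in WT_HFD and 0.0119 in WT_CD. For endothelium it was 0.548 in KO_HFD, 0.747 in KO_CD, 0.894 in WT_HFD and 0.0357 in WT_CD. With those lists as covariates the log2 fold change of Lepr for diet was 0.13 (adjusted p = 0.619) and 0.09 (adjusted p = 0.805). Stat3 and Socs3 were called for diet with the meningeal mean as a covariate, at log2 fold changes of 0.20 (adjusted p = 8.96e-05) and 0.49 (adjusted p = 0.00189).

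Jak2 (ENSMUSG00000024789, chromosome 19, 29251828 to 29313080, plus strand) encodes the kinase bound to the receptor. Its normalized counts averaged 1370 ± 51.2 in KO_HFD, 1305 ± 58.4 in KO_CD, 1342 ± 31.2 in WT_HFD and 1338 ± 31.1 in WT_CD (SD). The ranges overlapped, and the log2 fold change for diet was 0.04 averaged over genotypes (SE 0.020, adjusted p = 0.513). In knockouts it was 0.07 (SE 0.028, unadjusted p = 0.0164, adjusted p = 0.6004), with 3 of 9 high-fat libraries above every control-diet library. For diet within knockouts, in the fit of all 4 groups, 0 members were called by limma at a background of 0.0351% of all genes, and limma-voom called 0. At an unadjusted p below 0.05 there were 3 of 10 members (Stat3, Socs3 and Jak2), against 7.04% of all genes. With only the knockout groups in the fit 2 members were called by limma, Stat3 (adjusted p = 0.0129) and Socs3 (adjusted p = 0.00342). For diet within wild type, in the fit of all 4 groups, 1 member was called, Stat3, at a background of 0.0251%. With only the wild-type groups in the fit 0 were called, and Stat3 had an adjusted p of 0.104. The shares of all genes called in the fits of a single genotype are not reported here.

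Ptpn1 (ENSMUSG00000027540, chromosome 2, 167932057 to 167979385, plus strand) encodes the phosphatase PTP1B, which acts on JAK2. It averaged 949 ± 10.47 normalized counts in KO_HFD, 930 ± 49.0 in KO_CD, 963 ± 38.5 in WT_HFD and 931 ± 24.7 in WT_CD (SD). Its log2 fold change for diet was 0.04 with an interval of -0.01 to 0.08 (adjusted p = 0.518). Ptpn2 (ENSMUSG00000024539, chromosome 18) encodes the T-cell phosphatase, which acts on nuclear STATs. It averaged 518 ± 34.9 in KO_HFD, 517 ± 57.5 in KO_CD, 504 ± 41.6 in WT_HFD and 506 ± 8.88 in WT_CD, with a log2 fold change for diet of -0.00 and an interval of -0.08 to 0.08. For these phosphatases the intervals leave room for changes of a few percent.

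Sh2b1 (ENSMUSG00000030733, chromosome 7, 126466994 to 126475424, minus strand) encodes an adaptor that enhances JAK2 activity. Its normalized counts averaged 1901 ± 71.3 in KO_HFD, 1963 ± 54.0 in KO_CD, 1887 ± 51.4 in WT_HFD and 1933 ± 28.3 in WT_CD (SD). The log2 fold change for diet was -0.04 (SE 0.018, unadjusted p = 0.0281, adjusted p = 0.391), which did not pass the threshold over all genes.

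Stat5a (ENSMUSG00000004043, chromosome 11, 100859351 to 100885169, plus strand) encodes a transcription factor that leptin and growth hormone activate. It lies tail to tail with Stat3 on the opposite strand, with 72 shared exonic bases, and the strand setting of the counting is not given in the sources used here. Its normalized counts averaged 159 ± 18.02 in KO_HFD, 158 ± 23.3 in KO_CD, 173 ± 25.3 in WT_HFD and 184 ± 16.1 in WT_CD (SD). The log2 fold change for diet was -0.04 (SE 0.064, adjusted p = 0.875). For genotype it was -0.11 on high-fat diet (SE 0.087, adjusted p = 0.954) and -0.23 on control diet (SE 0.093, unadjusted p = 0.0174, adjusted p = 1.00). Stat5a was the member with the lowest unadjusted p for genotype, and it was not called. Its deviations from the group means followed those of 12 endothelial genes (r = 0.592, permutation p = 0.00109, adjusted over 130 relations 0.0283; rho = 0.577, adjusted 0.0452; r = 0.480 without the 2 farthest libraries). The part of vessel content in its level was not tested.

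Between genotypes, 0 of 10 members were called by limma on high-fat diet (background 0.00502% of genes, which is Gpr101 itself), on control diet (0.00502%) or averaged over diets (0.00502%). At an unadjusted p below 0.05 there were 0 members on high-fat diet (5.15% of all genes), 1 on control diet (4.12%) and 1 in the average (5.72%), Stat5a in both. The log2 fold change of Stat3 between genotypes was 0.00 on high-fat diet (interval -0.07 to 0.08) and that of Socs3 was 0.02 (interval -0.20 to 0.25). For the interaction of genotype and diet, 0% of all genes and 0 of 10 members were called, 0 members had an unadjusted p below 0.05, and limma-voom called 0 members in any of these comparisons.

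The diet effect on Stat3 and Socs3 was set against what else moved with diet. With age as a covariate the log2 fold changes averaged over genotypes were 0.18 for Stat3 (adjusted p = 0.0268) and 0.58 for Socs3 (adjusted p = 0.00774). Within mice of 150 days (8 KO_HFD, 3 KO_CD, 7 WT_HFD and 1 WT_CD) they were 0.14 and 0.48, and neither was called, with adjusted p of 0.992 and 0.706. Within those mice the knockouts averaged 181 ± 21.5 normalized counts of Socs3 on high-fat diet (n = 8) and 133 ± 6.50 on control diet (n = 3, SD). Its ranges were 152 to 211 and 127 to 140. The share of all genes whose ranges separate in so few mice was not counted. For Stat3 in the same knockouts the ranges were 2779 to 3235 on high-fat diet and 2606 to 2821 on control diet, which overlapped. Haemoglobin and other erythrocyte genes were higher on high-fat diet, 4 of 5 called, with summed counts of 14641 to 35458 in KO_HFD, 9038 to 20283 in KO_CD, 14621 to 39562 in WT_HFD and 9586 to 15877 in WT_CD. With the mean of that list as a covariate the log2 fold change was 0.15 for Stat3 (adjusted p = 0.0435) and 0.45 for Socs3 (adjusted p = 0.0721), which ended the call of Socs3. In that fit 18 of 19928 genes were called, against 67 without the covariate. As deviations from group means, Socs3 and the erythrocyte list had r = 0.206 (permutation p = 0.342, adjusted over 130 relations 0.854). Stat3 and that list had r = 0.367 (permutation p = 0.0458, adjusted 0.313). The part of blood content in these levels was not tested.

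Stat3 and Socs3 also moved together from mouse to mouse. Over the 32 libraries, their deviations from the group means on the log2 scale had r = 0.655 (permutation p = 0.00011, adjusted over 45 member pairs 0.00495) and rho = 0.642 (p = 0.00017, adjusted 0.00765). The other 44 pairs had r between -0.41 and 0.43, with none past the threshold, and the median of the 45 was 0.107. Without the 2 libraries farthest in Socs3, WT_HFD replicate 1 (Socs3 283, Stat3 3336) and WT_CD replicate 3 (Socs3 89.9, Stat3 2375), r was 0.508 (permutation p = 0.00387) and rho 0.494 (p = 0.00717). Within groups r was 0.475 in KO_HFD, 0.597 in KO_CD, 0.827 in WT_HFD and 0.706 in WT_CD, so all 4 groups had a positive value. Within mice of 149 days r was 0.676 (n = 11, permutation p = 0.0261), and within mice of 150 days it was 0.481 (n = 18, permutation p = 0.0503). Of 13339 genes with a mean of at least 50 normalized counts, Stat3 was the 39th most like Socs3 in these deviations, and Socs3 the 71st most like Stat3.

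**Figure D4:**
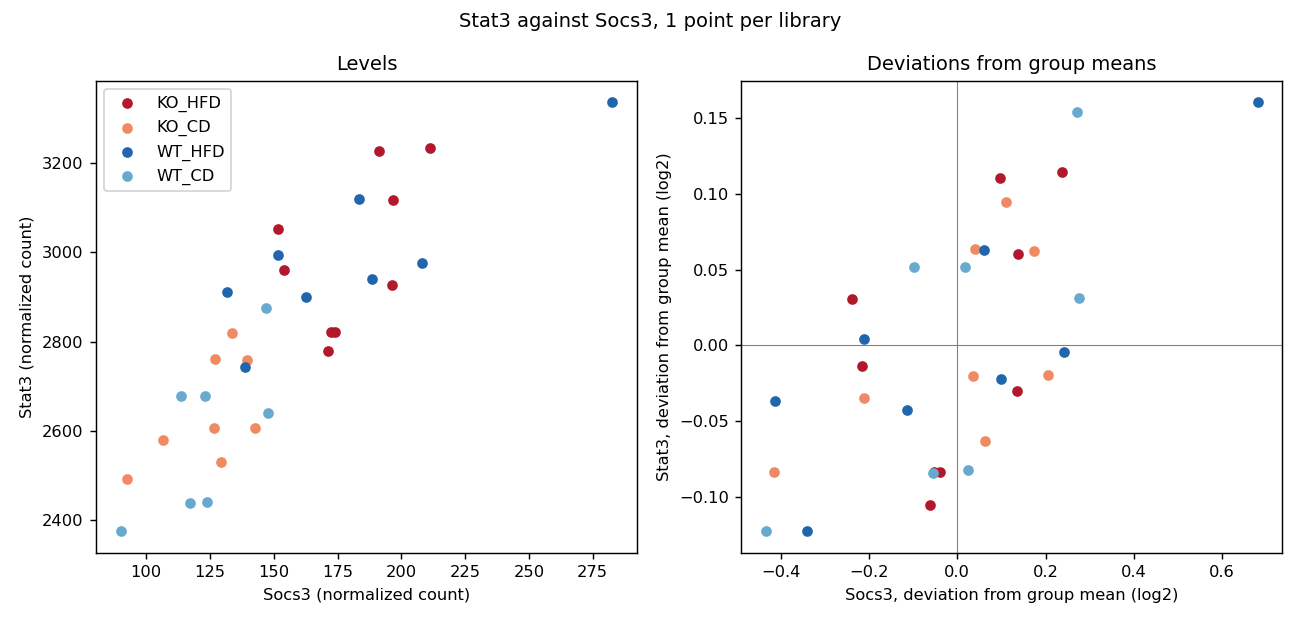
Stat3 against Socs3 in 32 libraries, as normalized counts (left panel) and as deviations from the group mean on the log2 scale (right panel), coloured by group. The deviations rise together (r = 0.655), and the library at the upper right of both panels is WT_HFD replicate 1.

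Marker lists that followed these genes from mouse to mouse were tested in the same way, over 130 member and list relations. Socs3 followed the tanycyte list, markers of the cells that line the third ventricle (r = 0.710, permutation p = 2e-05, adjusted 0.0013; rho = 0.631, adjusted 0.0280; r = 0.624 without the 2 farthest libraries). Its summed counts ranged from 4274 to 5773 in KO_HFD, 3811 to 5533 in KO_CD, 4316 to 6509 in WT_HFD and 4574 to 5731 in WT_CD. None of its 9 genes was called for diet, with 7 above 0. Stat3 ran against the thalamus list (r = -0.545, permutation p = 0.00157, adjusted 0.0340; rho = -0.558, adjusted 0.0468; r = -0.578 without the 2 farthest). Its r with arcuate neuron genes was 0.537 (adjusted permutation p = 0.0531) and with oligodendrocyte genes -0.520 (adjusted 0.0677). The relation of Stat3 and Socs3 was therefore recomputed with the mean of each list as a covariate, a choice made after these values were seen. Its r was then 0.519 (tanycyte), 0.545 (arcuate neuron), 0.587 (thalamus) and 0.529 (oligodendrocyte), against 0.655 without a covariate. Its rho was 0.376 (tanycyte, permutation p = 0.0421), 0.494 (arcuate neuron, p = 0.005), 0.434 (thalamus, p = 0.0196) and 0.414 (oligodendrocyte, p = 0.021), against 0.642. The diet effect averaged over genotypes kept its call with each of these lists, at log2 fold changes of 0.17 to 0.21 for Stat3 and 0.43 to 0.58 for Socs3.

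The genes most like Stat3 in their deviations were Asb4 (r = 0.813), Plagl1 (0.812), Serpina3n (0.809), Isl1 (0.806) and Amigo2 (0.797). Among those most like Socs3 were Antxr1 (r = 0.813), Col23a1 (0.756), Tnxb (0.737) and Ptpro (0.728), and Col23a1 is also a gene of the tanycyte list. These are descriptions over 32 libraries, which differed in depth and in their meningeal genes. Among the 13339 genes, 2.85% had r above 0.5 with Stat3 and 2.33% with Socs3.

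The wider pathway was read from lists of its genes. Among genes described as STAT3 targets, 15 of 17 tested were above 0 for diet averaged over genotypes and 1 was called, with a median log2 fold change of 0.13, against -0.00 over all genes. At an unadjusted p below 0.05 there were 9 of 17, against 11.1% of all genes. This list too was chosen with earlier results of these data known, so the counts only describe it. The called gene was Serpina3n, an acute-phase protease inhibitor of astrocytes, at 0.54 (SE 0.062, adjusted p = 1.21e-05), and it was called in knockouts (0.55, adjusted p = 0.00338) and in wild type (0.53, adjusted p = 0.0137) too. The astrocyte filament gene Gfap, on the same list, had 0.03 (adjusted p = 0.909). Cebpd (0.31, adjusted p = 0.172), Pim3 (0.13, adjusted p = 0.113) and Mcl1 (0.10, adjusted p = 0.148) were not called. Fos and Junb, which neuronal activity also induces, had 0.46 and 0.28 and were not called.

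For diet averaged over genotypes, 0.336% of all genes were called by limma and 11.1% had an unadjusted p below 0.05. The list counts that follow stand beside those shares. Of the other SOCS, PIAS and phosphatase genes, 0 of 14 were called for diet by limma, 3 had an unadjusted p below 0.05, and the median was 0.01. Socs1 stood at 0.20 (SE 0.081, adjusted p = 0.349), Socs5 -0.01 and Socs7 0.00. Of the other Janus kinases and STATs, 0 of 7 were called and 1 had an unadjusted p below 0.05. Jak1 had -0.00 and Stat5b -0.02. Of the receptor trafficking and adaptor genes 0 of 6 were called and 1 had an unadjusted p below 0.05, with Leprot, whose product limits the receptor at the cell surface, at 0.05 and Ptpn11, which encodes SHP2, at -0.02. Of 11 gp130 receptors and ligands 0 were called and 2 had an unadjusted p below 0.05, with the shared subunit Il6st at 0.03, Lifr at 0.09 (adjusted p = 0.259) and Cntfr at -0.04. Of 5 STAT5-coupled hormone receptors 0 were called and 0 had an unadjusted p below 0.05, with the growth hormone receptor Ghr at -0.01. Leptin itself (Lep) and the cytokine genes Il6, Osm and Cntf were below the filter, at no more than 8.24 normalized counts in any library.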

How the data were processed

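Total RNA from 32 hypothalami was sequenced with a stranded paired-end protocol, per the labels. Per the submitters' processing notes, the tools included STAR 2.7.6a and DESeq2 1.28.1, with the build GRCm38. The notes also list cutadapt 2.10, FastQC, R 4.0.2 and Trim Galore 0.6.2. The authors deposited log2 values of normalized counts. Each is whole reads over a size factor of its library (100.0% of values within 1e-06 reads), and 0 reads are listed as 0.1. Depth was 25.3 to 34.2 M reads on genes. Groups and replicate numbers came from the labels. The members, gene lists and tests were chosen with earlier results of these data known.

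Values were analysed as log2(normalized count + 1), for genes with at least 10 normalized counts in at least 7 libraries. All 4 groups entered 1 fit in limma 3.58.1 (R 4.3.3, statmod 1.5.0) with an intensity trend and robust variances. P-values were two-sided and adjusted by Benjamini-Hochberg over the 19928 genes, with a threshold of 0.05. The fit was tested on simulated data. Correlations used 100000 permutations within groups in Python 3.11.15 with numpy 2.4.6, and for Lepr on either side of the meningeal gap, seen after the analysis, permutations within those libraries. Limits for 0 reads (3 reads of a group's total) cover counting error only. No 2 libraries of a group agreed within counting noise (lowest mean chi-square per gene 2.12 in 113 pairs).

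Genes named beyond the members were those called in the pathway lists, 12 pathway genes (such as Leprot and Jak1) whatever their result, the 5 genes most like Stat3, Socs3, Lepr and Cish, and others stated with their list. Some genes that this rule takes are not reported here. Genes such as Gfap, Cebpd, Pim3, Mcl1, Fos, Junb and Prlr were named after their values were seen. Alternatives were another pseudocount, no filter, limma-voom on the recovered reads, scaling to library totals, array weights, age, library order, marker lists as covariates, fewer groups and leaving out each library. Replicate numbers did not pair the mice. Promoters came from RefSeq (GRCm38.p6).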

Additional observations from a re-analysis of the deposited data

Results flagged for a closer look

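In 4 of the 40 combinations of 10 genes and 4 groups, 1 library stood apart from the others of its group by more than Dixon's limit, where chance gives about 1 in 20 groups. Lepr in KO_HFD replicate 2 had 355.1 normalized counts, with the next library at 251.7, and in KO_CD replicate 1 it had 302.8, with the next at 199.8. These were the libraries with the highest summed meningeal counts of their groups, 11692 and 9441. Socs2 in WT_HFD replicate 7 had 255.8 normalized counts, with the next at 217.3. Sh2b1 in the same library was the lowest of its group at 1782, with the next at 1872.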

How the results depend on the processing

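The number of members called for diet averaged over genotypes stayed at 2 under 16 of 18 alternatives and in all 32 fits that left out 1 library. It was 1 with the erythrocyte mean as a covariate and 0 within mice of 150 days. In knockouts, where 0 were called, it was 2 with array weights, with the choroid plexus mean, with the tanycyte, arcuate neuron and oligodendrocyte means (chosen after the data were seen) and with the compared groups alone, and 1 with library number in blocks of 8 and with the meningeal, endothelium and thalamus means. Leaving out 1 library gave 0 to 2 in knockouts, with 1 or more after leaving out KO_HFD replicate 1, 2 or 3, KO_CD replicate 8, WT_HFD replicate 1, 5 or 6, or WT_CD replicate 3 or 5. In wild type, where 1 was called, it was 2 with array weights and with the arcuate neuron and oligodendrocyte means. It was 0 with age, with the erythrocyte mean, within mice of 150 days and with the compared groups alone, and leaving out 1 library gave 0 to 2. With the replicate number as a block, 0 members were called in wild type (Stat3 0.20, adjusted p = 0.0739) and 2 in the average, but the numbers paired no samples (mean r of same-numbered libraries 0.0196). Calls over all 19928 genes shifted as well. For diet averaged over genotypes they were 67 in the main fit, 18 with the erythrocyte mean, 12 with age and 103 with the choroid plexus mean. In the leave-one-out fits that called a member in knockouts they were 6 to 10, against 7 in the main fit. For the other settings they are not reported here. The cause of these shifts was not tested. The r of Stat3 and Socs3 missed its threshold within KO_HFD (0.475), KO_CD (0.597), WT_CD (0.706) and mice of 150 days (0.481), each with fewer libraries. No result changed sign among called values. Counts for genotype and interaction stayed at 0 throughout. Counts were lowest for Cish, Socs3 and Stat5a, and gene-level values cannot show isoforms or phosphorylation.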

Other observations

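Of receptors and ligands of the gp130 family, 11 of 11 tested genes lay below 0 for knockouts against wild type when averaged over diets, with a median log2 fold change of -0.05, against -0.00 over all genes. On high-fat diet 11 of 11 lay below 0 and on control diet 8 of 11. Some marker lists ran the same way in the average, with 9 of 9 tanycyte, 5 of 5 pituitary, 9 of 10 astrocyte and 6 of 7 arcuate neuron genes below 0. So did 11 of 14 meningeal genes and 9 of 12 each for endothelium, microglia and hypothalamus. Others ran the other way, with 8 of 8 oligodendrocyte, 4 of 5 erythrocyte and 4 of 6 thalamus genes above 0. On high-fat diet 14 of 14 meningeal, 11 of 12 endothelial, 10 of 12 microglial and 7 of 7 arcuate neuron genes lay below 0. There 4 of 8 oligodendrocyte, 3 of 6 thalamus and 2 of 5 cortex and hippocampus genes lay below 0. The part of cell content in the gp130 values was not tested. None of the 11 was called by limma and 1 had an unadjusted p below 0.05, against 5.72% of all genes. It was Cntfr, the receptor subunit for ciliary neurotrophic factor, at -0.06 (SE 0.025, unadjusted p = 0.0299, adjusted p = 0.866). The prolactin receptor gene Prlr had 0.08 (SE 0.032, unadjusted p = 0.0125, adjusted p = 0.848). Fos differed by genotype on control diet by -0.91 (SE 0.310, unadjusted p = 0.00629, adjusted p = 1.00) and on high-fat diet by -0.16, with an interaction of 0.76 (unadjusted p = 0.0851), none of them called.

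Among the genes most like Lepr from mouse to mouse were Sned1 (r = 0.942), Slc13a3 (0.928), Abca4 (0.921) and Bmp7 (0.919), and 5.93% of 13339 genes had r above 0.5 with it. For Cish they were Armc1 (0.609), Atf2 (0.584), Dennd1c (0.584), Pdzd11 (0.538) and Ccnb2-ps (0.535), and 0.105% of genes had r above 0.5. The pooled values for Lepr rest on libraries that fall on either side of the gap in meningeal genes.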
